A study of Mus musculus with 6 samples.

Results

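The genes of megalin and cubilin endocytosis are described here, a set of 7 of the 54838 genes counted, chosen by symbol: Lrp2, Cubn, Amn, Lrpap1, Dab2, Clcn5 and Ocrl. RNA was sequenced from glomeruli isolated at 3 weeks of age, with 3 libraries labelled KO (numbered 146, 147 and 148, genotype bPIX -/-, with the loss stated to be confined to podocytes) and 3 labelled CTRL (numbered 157, 162 and 163, wild type). The design text gives 3 mice in each group, and each number was taken to be 1 mouse. The promoter that drives the podocyte deletion and the way glomeruli were isolated were not given in the sources used here. The question set by the design is which transcripts of the preparation differ when podocytes, the cells that cover the glomerular capillaries, lack the Cdc42 and Rac1 exchange factor bPIX (Arhgef7).

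Megalin (Lrp2) and cubilin (Cubn) are large receptors at the base of the brush border of the proximal tubule, where they bind filtered albumin, vitamin carriers and hormones and take them into the cell. Cubilin has no membrane anchor and reaches the surface together with amnionless (Amn). Receptor-associated protein (Lrpap1) is the chaperone of megalin in the endoplasmic reticulum, Dab2 is an adaptor that links the receptor tail to clathrin, the chloride and proton exchanger ClC-5 (Clcn5) serves endosomal acidification, and the lipid phosphatase OCRL acts on phosphoinositides of the endocytic path. Loss of ClC-5 or OCRL in humans causes Dent disease or Lowe syndrome, both with loss of small proteins into the urine.

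Transcripts of kidney tubules were abundant in every library, although the tissue is labelled as glomeruli. Gene counts ranged from 39841396 to 51917945 per library. Summed over 25 proximal tubule markers, none of which is one of the 7 genes, expression was 19749 to 33587 CPM (reads per 1000000 reads, on scaled library sizes) in the libraries labelled KO and 41993 to 43718 CPM in those labelled CTRL. Summed podocyte markers came to 2270 to 8444 CPM in KO and 959 to 1175 CPM in CTRL. No marker of the 7 cell type lists was at 0 in any library. Macrophage markers overlapped between the groups, at 99.2 to 145 CPM in KO and 101 to 115 CPM in CTRL. Arhgef7 was counted 7837, 3712 and 3903 times in KO 146, 147 and 148, against 3956, 3582 and 3915 times in CTRL 157, 162 and 163, so the targeted gene did not separate the labels (log2 fold change 0.17, SE 0.17, edgeR adjusted p = 0.544). The Arhgef7 value was -0.07 without KO 146 and -0.38 with proximal tubule markers as a covariate (edgeR adjusted p = 0.488 and 0.105). Each deposited file is named for the opposite group. All directions below follow the sample labels and would turn round with them.

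The promoters of Lrp2, Cubn and Amn are shown because the profiles of the 2 receptors over the libraries lay close together, and that of the partner of cubilin lay further from both. Other genes lay nearer to each receptor. The sequences are from RefSeq on GRCm38.p6, read 5′ to 3′ on the strand of the gene, and end before the first base of the GENCODE gene. Capitals mark the GC box GGGCGG or its reverse complement CCGCCC.
Lrp2, chr2:69586066-69586279, minus strand: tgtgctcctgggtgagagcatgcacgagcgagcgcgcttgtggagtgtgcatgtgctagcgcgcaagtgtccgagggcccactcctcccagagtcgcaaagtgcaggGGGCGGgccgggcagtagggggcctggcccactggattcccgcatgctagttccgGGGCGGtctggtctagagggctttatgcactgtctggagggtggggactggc
Cubn, chr2:13491877-13492126, minus strand: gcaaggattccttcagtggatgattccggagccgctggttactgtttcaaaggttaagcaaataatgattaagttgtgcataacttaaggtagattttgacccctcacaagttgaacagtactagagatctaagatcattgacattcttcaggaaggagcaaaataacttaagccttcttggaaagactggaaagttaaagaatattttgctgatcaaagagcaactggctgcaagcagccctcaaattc
Amn, chr12:111270846-111271094, plus strand: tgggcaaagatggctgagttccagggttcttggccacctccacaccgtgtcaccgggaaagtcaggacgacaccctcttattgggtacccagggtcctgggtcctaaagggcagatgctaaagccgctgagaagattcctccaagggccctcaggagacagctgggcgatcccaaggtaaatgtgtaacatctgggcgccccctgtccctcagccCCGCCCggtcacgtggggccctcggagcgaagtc

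GGGCGG on either strand occurred in Lrp2 (bases -143 to -138 and -88 to -83, counted from the RefSeq start) and in Amn (bases -35 to -30). It was not found in the Cubn and Dab2 windows. Windows of Clcn5, Ocrl and Lrpap1 held it too, as did 35.7% of the 32851 promoters of 300 bases in the table. The letters CACGTG stood in the Amn window near its GC box (7.15% of all promoters), and TATAAA was found in a Clcn5 window alone among the 7 genes (13.6% of all promoters). These motifs were chosen after the sequences and expression values had been seen, and a match is a description of letters. The GC content of the printed stretches was 65.9% for Lrp2, 39.6% for Cubn and 61.0% for Amn.

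All 7 genes were expressed in every library and passed the filter on low counts. To compare genes, levels were set per length of merged exons as TPM, a length-corrected share of all transcripts. In KO, Lrpap1 had 254 ± 11.8 TPM and Amn 249.8 ± 34.4 TPM, with overlapping libraries. Below them in KO lay Lrp2 at 155 ± 12.4, Dab2 at 139 ± 1.47, Cubn at 29.7 ± 3.07, Clcn5 at 20.4 ± 2.35 and Ocrl at 6.92 ± 1.38 TPM (SD, n = 3). In CTRL the order was the same, with Lrpap1 at 271 ± 16.4, Amn at 256 ± 14.3, Lrp2 at 204 ± 18.4 and Dab2 at 155 ± 10.5 TPM. Cubn had 39.3 ± 4.21, Clcn5 23.1 ± 1.34 and Ocrl 5.72 ± 0.06 TPM in CTRL (SD, n = 3). Lrpap1 and Amn were the only neighbours in this order whose libraries overlapped, in both groups. The merged exon length of a gene is the same in every library, so overlap of libraries does not measure an error in that length. By CPM, which favours long transcripts, Lrp2 ranked 59 among 17086 tested genes in KO and 46 in CTRL. The counts behind these values ran from 910 for Ocrl to 69080 for Lrp2. Counting error alone is then at most 3.31% of a value, reached for Ocrl.

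Megalin and cubilin transcripts had lower values in every library labelled KO than in any labelled CTRL, at 67.4% and 67.0% of the CTRL level, without passing the test over all genes. Dab2 and Lrpap1 were also lower without overlap, as were 19.6% of all tested genes. Of the 7 genes, edgeR called 0 in either direction, against 1.01% of the 17086 genes tested (0.421% lower, 0.591% higher). At an unadjusted p below 0.05, 2 of 7 were lower and 0 higher, against 11.8% lower and 17.5% higher of all tested genes. DESeq2 called 2 of 7 genes, Lrp2 and Cubn, both lower, where it called 16.4% of all genes (5.06% lower). The median log2 fold change of the 7 genes was -0.34, and over all tested genes it was -0.006. In bulk RNA, fewer cells of a type and less RNA per cell cannot be told apart.

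Lrp2, which encodes megalin, had 753, 1076 and 1195 CPM in KO 146, 147 and 148, against 1605, 1352 and 1531 CPM in CTRL 157, 162 and 163. The groups did not overlap, and KO 146 was the lowest library. Lrp2 averaged 1008 ± 229 CPM in KO and 1496 ± 129.9 CPM in CTRL (SD, n = 3 each), with a log2 fold change of -0.57 (SE 0.19, edgeR Benjamini-Hochberg adjusted p = 0.118). Cubn, its partner receptor, had 126, 196 and 198 CPM in KO 146, 147 and 148, against 260.5, 231 and 284 CPM in CTRL 157, 162 and 163. These groups did not overlap either. Cubn averaged 173 ± 40.8 CPM in KO and 258 ± 26.4 CPM in CTRL, with a log2 fold change of -0.58 (SE 0.19, edgeR adjusted p = 0.109). The Cubn exons share 368 bases with Gm13270 on the opposite strand, which had 6 to 12 reads per library. The strand setting was not given, so this count does not show how many reads in the shared bases were left out.

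Amn, which anchors cubilin, had 125, 194 and 223 CPM in KO 146, 147 and 148, against 211, 196 and 216 CPM in CTRL 157, 162 and 163. KO 148 was above every CTRL library, KO 146 was far below, and the groups overlapped. The Amn log2 fold change was -0.20 (SE 0.21, edgeR adjusted p = 0.538). Lrpap1, the megalin chaperone, had 316, 435 and 464 CPM in KO 146, 147 and 148, against 487, 466 and 519.8 CPM in CTRL 157, 162 and 163. Its groups lay apart by a narrow gap between KO 148 and CTRL 162. Lrpap1 averaged 405 ± 78.5 CPM in KO and 491 ± 27.3 CPM in CTRL, and its log2 fold change was -0.28 (SE 0.16, edgeR adjusted p = 0.292).

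Dab2, the clathrin adaptor, had 323, 415 and 447 CPM in KO 146, 147 and 148, against 525, 518 and 460.3 CPM in CTRL 157, 162 and 163. The groups did not overlap, and KO 148 lay close to CTRL 163. The Dab2 log2 fold change was -0.34 (SE 0.15, edgeR adjusted p = 0.177). Endothelial and macrophage cells also express Dab2. Endothelial markers summed to 1637 to 5489 CPM in KO and 825 to 962 CPM in CTRL, and their part in the Dab2 values was not tested. The Dab2 exons share 211 bases with the pseudogene Gm18888 on the opposite strand, which had at most 3 reads in any library. As for Cubn, this count does not show how many reads in the shared bases were left out.

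Clcn5, the endosomal exchanger, had 65.4, 97.1 and 112 CPM in KO 146, 147 and 148, against 115, 111 and 123 CPM in CTRL 157, 162 and 163. KO 148 lay within the CTRL range, and the log2 fold change was -0.35 (SE 0.19, edgeR adjusted p = 0.267). Ocrl, the phosphoinositide phosphatase, was the only one of the 7 genes with a positive value. It had 25.8, 24.3 and 24.5 CPM in KO 146, 147 and 148, against 23.7, 23.9 and 24.1 CPM in CTRL 157, 162 and 163. Its groups did not overlap but differed by little, with 24.8 ± 0.82 CPM in KO and 23.9 ± 0.19 CPM in CTRL (log2 fold change 0.06, SE 0.07, edgeR adjusted p = 0.629). Over the 7 genes, the groups did not overlap in 4 with lower and 1 with higher KO values, against 19.6% and 21.9% of all tested genes.

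**Figure D1:**
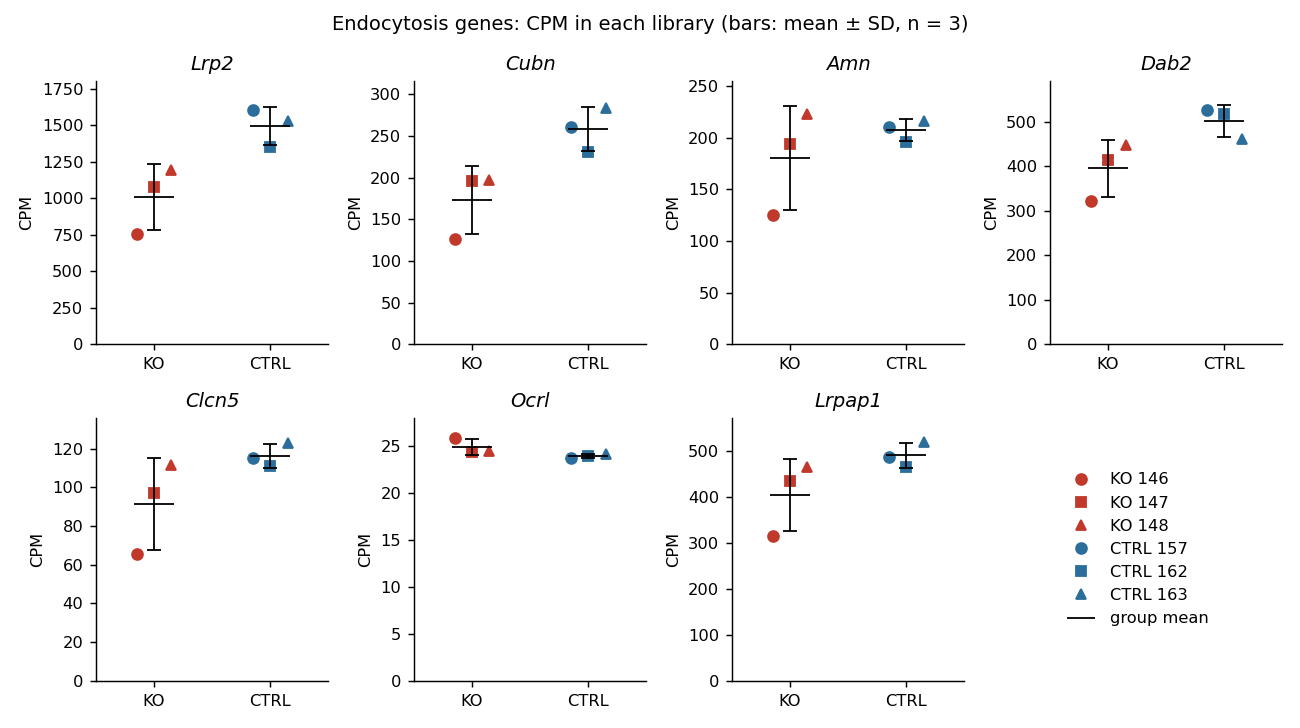
CPM of each of the 7 genes (vertical axes from 0) in the 3 KO and 3 CTRL libraries, with group means and SD as bars. Lrp2, Cubn, Dab2 and Lrpap1 lie lower in all 3 KO libraries than in any CTRL library, like 19.6% of all tested genes. KO 146 is the lowest library for 6 of the 7 genes.

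A single library set much of the spread. KO 146 had the lowest CPM of all 6 libraries for 6 of the 7 genes and the highest for Ocrl. It also had the lowest proximal tubule markers (mean 8.73 log2 CPM, against 9.29 and 9.45 in KO 147 and 148 and 9.70 to 9.80 in CTRL) and the lowest share of mitochondrial counts (11.9%, against 16.5% to 19.2% in the other libraries). Without KO 146, the log2 fold change of Lrp2 was -0.41 (edgeR adjusted p = 0.022) and that of Cubn was -0.40 (adjusted p = 0.0184), and both were called lower. In that fit 17.2% of all tested genes were called (6.62% lower), against 1.01% with all libraries. The Amn value without KO 146 was -0.005, that of Clcn5 was -0.16, that of Lrpap1 was -0.13 and that of Dab2 was -0.23. Over the alternatives the adjusted p ran from 0.022 to 0.876 for Lrp2 and from 0.0184 to 0.889 for Cubn.

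**Figure D2:**
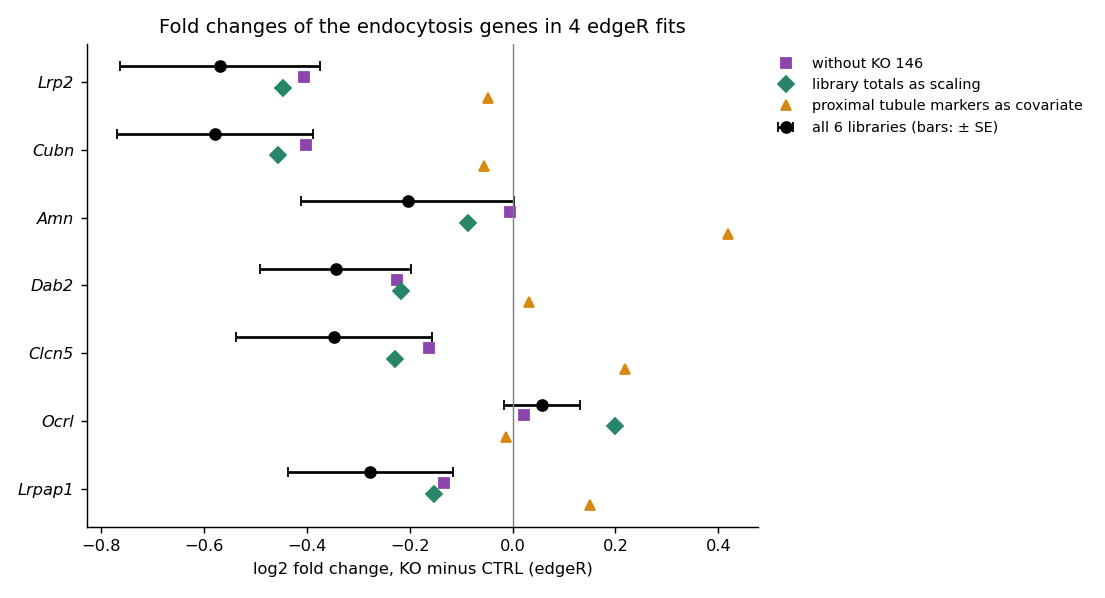
Log2 fold changes of the 7 genes, KO minus CTRL, in 4 edgeR fits (horizontal axis), with SE bars for the fit to all 6 libraries. Lrp2 and Cubn move from -0.57 and -0.58 to -0.05 and -0.06 with proximal tubule markers as a covariate, and the Amn value moves from -0.20 to 0.42.

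Proximal tubule markers were lower in the same libraries. All 25 had negative values (median log2 fold change -0.54), and 1 was called, Slc7a13, an amino acid transporter, which averaged 193 ± 22.8 CPM in KO and 380.1 ± 29.5 CPM in CTRL (edgeR adjusted p = 0.0332). With the mean of these markers as a covariate, the Lrp2 log2 fold change was -0.05 (edgeR adjusted p = 0.876) and the Cubn value -0.06 (adjusted p = 0.889). The same fit gave 0.42 for Amn (adjusted p = 0.0831), 0.22 for Clcn5 (0.364), 0.15 for Lrpap1 (0.554), 0.03 for Dab2 (0.917) and -0.01 for Ocrl (0.967), so that 0 of the 7 were called, against 1.57% of all tested genes. Marker means did not overlap between the groups, so that tubule content and label cannot be fully told apart in that fit.

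Set against proximal tubule markers of the same library, Lrp2 and Cubn overlapped between the groups, and the other 5 genes had higher values in every KO library, as did 72.5% of all tested genes. The share of the 7 genes is thus near that of all genes, whose median difference on this scale was 0.57. The relative level is the log2 CPM of the gene minus the mean log2 CPM of the 25 markers. For Lrp2 it was 0.82, 0.78 and 0.78 in KO 146, 147 and 148, against 0.85, 0.69 and 0.88 in CTRL 157, 162 and 163 (difference -0.01, exact permutation p = 0.9). For Cubn it was -1.76, -1.68 and -1.82 in KO, against -1.77, -1.86 and -1.56 in CTRL (difference -0.02, exact permutation p = 0.9).

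The relative level of Amn was -1.77, -1.70 and -1.65 in KO 146, 147 and 148, against -2.08, -2.10 and -1.95 in CTRL 157, 162 and 163, and the groups did not overlap (difference 0.34). The difference was 0.29 for Lrpap1, 0.23 for Dab2, 0.20 for Clcn5 and 0.64 for Ocrl, each without overlap. Of the 7 differences, that of Ocrl alone was above the median of all genes. For these 5 genes the exact two-sided permutation p was 0.1, the smallest that 3 against 3 libraries can give, so no test of the 7 could pass 0.05. KO 146 had the highest relative level of Ocrl (-4.04, against -4.69 and -4.83 in KO 147 and 148 and -5.23 to -5.11 in CTRL). Without KO 146 the Ocrl difference was 0.40. Podocyte, endothelial and mesangial markers had positive log2 fold changes in 14 of 14, 13 of 13 and 13 of 13 cases, with 0 called. Their part in the relative levels was not tested.

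**Figure D3:**
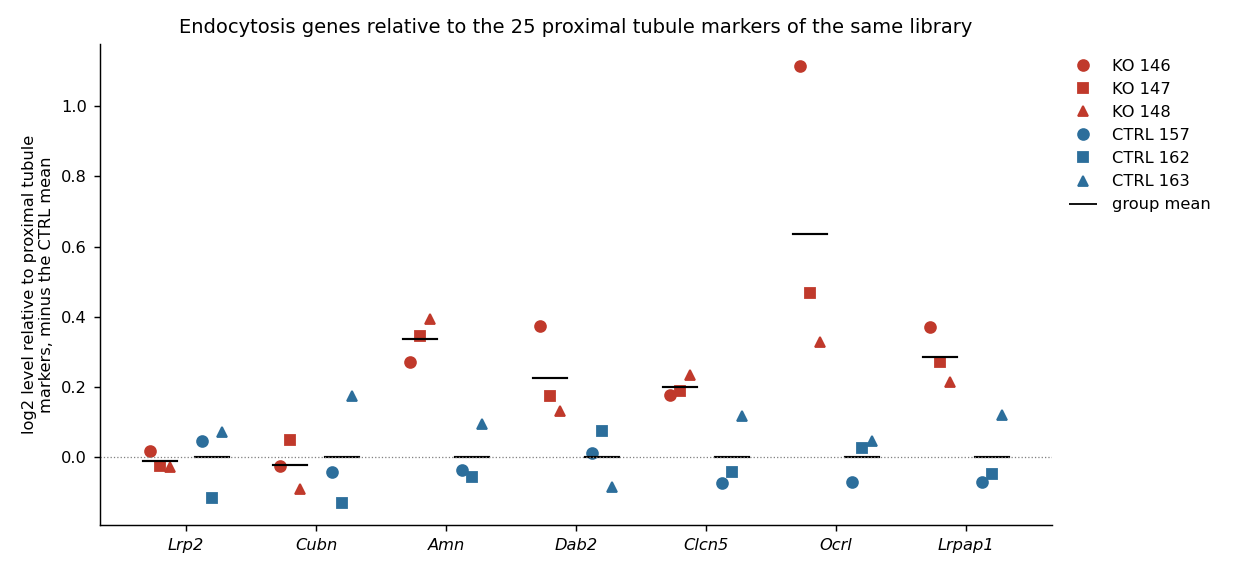
Log2 level of each gene relative to the mean of 25 proximal tubule markers in the same library, shown minus the CTRL mean of that gene (vertical axis), for 3 KO and 3 CTRL libraries with group means as lines. Lrp2 and Cubn overlap between the groups, while the other 5 genes, like 72.5% of all tested genes, lie higher in all 3 KO libraries.

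Ratios of read counts within a library do not depend on how libraries are scaled, but they can differ with its mix of cell types. The 2 receptors stood in much the same ratio in every library, with 5.98, 5.50 and 6.05 Lrp2 reads per Cubn read in KO 146, 147 and 148, against 6.16, 5.85 and 5.40 in CTRL 157, 162 and 163. The groups overlapped (log2 difference 0.01, exact permutation p = 0.8). The ratio of Cubn to its anchor Amn was 1.01, 1.01 and 0.887 in KO 146, 147 and 148, against 1.24, 1.18 and 1.31 in CTRL 157, 162 and 163. It averaged 0.969 ± 0.071 in KO and 1.24 ± 0.066 in CTRL (SD, n = 3 each), a log2 difference of -0.36 without overlap (exact permutation p = 0.1, Benjamini-Hochberg 0.167 over 5 ratios).

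The ratio of megalin to its chaperone, Lrp2 to Lrpap1, was 2.38, 2.48 and 2.57 in KO 146, 147 and 148, against 3.30, 2.90 and 2.95 in CTRL 157, 162 and 163, a log2 difference of -0.30 without overlap (exact permutation p = 0.1, adjusted 0.167). Dab2 to Lrp2 was 0.428, 0.385 and 0.374 in KO, against 0.327, 0.383 and 0.301 in CTRL, and overlapped (log2 difference 0.24, exact permutation p = 0.2, adjusted 0.25). Clcn5 to Ocrl was 2.53, 4.001 and 4.56 in KO, against 4.86, 4.63 and 5.11 in CTRL, without overlap (log2 difference -0.44, exact permutation p = 0.1, adjusted 0.167). Without KO 146 the Clcn5 to Ocrl difference was -0.19. Relative to the tubule markers, 72.5% of all tested genes were higher in every KO library, while Lrp2 and Cubn differed by -0.01 and -0.02. A lower KO ratio of either receptor to another gene was therefore common, and the part of tubule content in the 5 ratios was not tested.

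**Figure D4:**
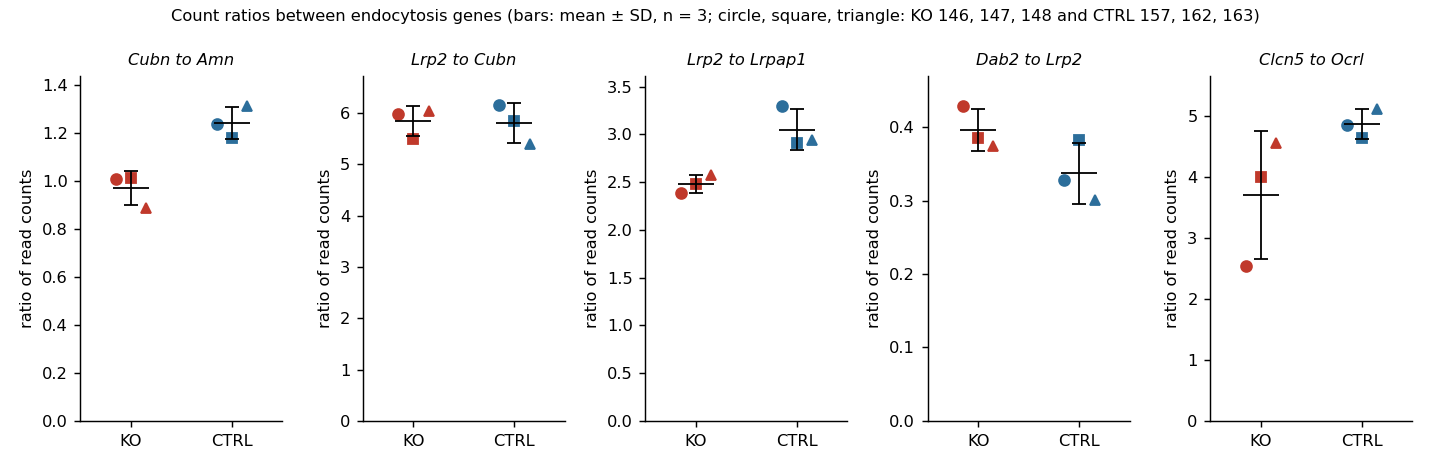
Ratios of read counts between 5 pairs of the genes (vertical axes from 0) in the 3 KO and 3 CTRL libraries, with means and SD as bars. Lrp2 to Cubn averages 5.84 in KO and 5.80 in CTRL, while Cubn to Amn averages 0.969 in KO and 1.24 in CTRL. The part of tubule content in the ratios was not tested.

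The 7 genes did not share a single profile across the libraries. Profiles were compared by the root mean square difference of centred log2 CPM over the 6 libraries, among 9605 other genes of at least 10 CPM. Lrp2 and Cubn differed by 0.071, Amn and Clcn5 by 0.074 and Clcn5 and Lrpap1 by 0.076, while Ocrl differed from the others by 0.27 to 0.42. Many other genes lay nearer: Cubn ranked 56 from Lrp2, Clcn5 88 from Amn and Lrpap1 144 from Clcn5, nearest first. The median difference from all other genes was 0.35 for Lrp2, 0.28 for Amn and 0.29 for Clcn5. The nearest genes to Lrp2 were Tmem205 (0.026), the folate receptor gene Folr1 (0.03) and the glutathione transferase Gstt1 (0.032). Folr1 had 181, 262 and 290.3 CPM in KO 146, 147 and 148, against 374, 335 and 361 CPM in CTRL 157, 162 and 163. Nearest to Cubn were the transporter Slc22a22 (0.047), the carboxylesterase Ces1d (0.051) and Nat8f1 (0.054).

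For the remaining genes, the nearest profiles were those of Rnf208, Mtfp1 and Dlec1 to Amn (0.038 to 0.04), Sfxn5, Gucd1 and Ppcs to Dab2 (0.024 to 0.03), and Prcp, Sowahb and Pdzk1ip1 to Clcn5 (0.014 to 0.032). Ocrl lay nearest to Rnf141, Cnot6l and Dnajc5 (0.013 to 0.019), and Lrpap1 to Tmem126a, B4galt5 and Atp5f1 (0.021 to 0.026). Of these 21 genes, edgeR called 0 (adjusted p 0.081 to 0.749).

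The wider endocytic path was described through 7 lists with 112 tested genes, of which edgeR called 1, lower in KO. Of all tested genes, 1.01% were called in that fit. The list count was 20 without KO 146, 19 without KO 148, 0 without any other library and 14 by DESeq2. Among all tested genes, 17.2% were called without KO 146, 3211 of 17510 without KO 148 and 16.4% by DESeq2. The list gene called with all 6 libraries was Pi4ka, which makes phosphatidylinositol 4-phosphate. Pi4ka had 134, 153 and 169 CPM in KO 146, 147 and 148, against 279.8, 263 and 233 CPM in CTRL 157, 162 and 163, and fell by 0.77 on the log2 scale (SE 0.12, edgeR adjusted p = 0.0492). The call was lost with the tubule covariate (-0.50, adjusted p = 0.0685) and without CTRL 157, 162 or 163 or KO 147 (-0.71, -0.76, -0.84 and -0.77, adjusted p 0.139 to 0.246). Over all alternatives its adjusted p ran from 1.33e-05 to 0.246. The other 12 genes of the phosphoinositide list, which includes the OCRL paralog Inpp5b, did not pass, and the list median was -0.05. With library totals as scaling it was 0.10, against 0.13 over all tested genes.

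Genes of endosomal acidification had 20 of 21 negative values, with a median of -0.21, 0 called, and 12 of 21 without overlap, all lower, against 19.6% of all tested genes. The median was -0.07 with library totals as scaling, where that of all tested genes rose to 0.13, and -0.0005 with the tubule covariate. Markers of the loop of Henle, distal tubule and collecting duct were also negative in 14 of 14 cases (median -0.42, 0 called), and their part in these values was not tested. The chloride and proton exchanger Clcn3 averaged 97.9 ± 15.2 CPM in KO and 137 ± 2.03 CPM in CTRL (log2 fold change -0.48, SE 0.12, edgeR adjusted p = 0.0777). The proton pump subunit Atp6v1b2 averaged 306 ± 53.6 CPM in KO and 431 ± 36.9 CPM in CTRL (-0.50, SE 0.15, adjusted p = 0.099). Among endosomal Rabs, sorting and recycling genes 19 of 22 were negative, with 0 called and a median of -0.14. With library totals as scaling it was -0.005, against 0.13 over all tested genes. Rab11fip3, an effector of recycling endosomes, stood at -0.48 (SE 0.15, adjusted p = 0.1) and the motor gene Myo5b at -0.44 (SE 0.14, adjusted p = 0.0976). Lower without overlap were 10 of 22 genes of this list, 5 of 10 brush border, 5 of 15 lysosomal and 3 of 10 LDL receptor family genes. Clathrin genes had 3 of 21 and phosphoinositide genes 1 of 13, against 19.6% of all tested genes. Higher without overlap, in the same order, were 2, 0, 1, 2, 4 and 0, against 21.9% of all tested genes.

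Clathrin coat and adaptor genes had no common direction, with 11 of 21 negative, 0 called and a median of -0.006. With library totals as scaling it was 0.14, against 0.13 over all tested genes. Itsn1, an endocytic scaffold, had 40.4, 31.8 and 28.6 CPM in KO 146, 147 and 148, against 25.2, 25 and 24.8 CPM in CTRL 157, 162 and 163. These libraries did not overlap (log2 fold change 0.43, SE 0.13, edgeR adjusted p = 0.101). In the rest of the LDL receptor family, 8 of 10 tested genes were negative (median -0.25, 0 called, Lrp1b not tested). Lrp1, the large relative of megalin, had the opposite sign, with 144, 69.1 and 43.3 CPM in KO 146, 147 and 148, against 20.1, 20.6 and 24.8 CPM in CTRL 157, 162 and 163. Its log2 fold change was 1.97 (SE 0.42, edgeR adjusted p = 0.0753). Lrp1 passed the test with DESeq2 (1.97, adjusted p = 2.44e-05), without KO 146 (1.35, edgeR adjusted p = 0.0171) and without KO 148 (2.28, edgeR adjusted p = 0.0147). The highest value was in KO 146, where mesangial and smooth muscle markers summed to 2162 CPM, against 872 and 619 CPM in KO 147 and 148 and 336 to 349.9 CPM in CTRL. Podocyte markers (8444, 3502 and 2270 CPM in KO 146, 147 and 148) and endothelial markers (5489, 2450 and 1637 CPM) had the same order. Both lay above CTRL (959 to 1175 and 825 to 962 CPM). The part of these cell types in the Lrp1 values was not tested. With the tubule covariate the log2 fold change was 0.48 for Lrp1 and 0.03 for Itsn1. Lrp12 stood at -0.37 (SE 0.13, adjusted p = 0.125).

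Of 15 lysosomal genes 13 were negative, with 0 called and a median of -0.11. That median was 0.01 with library totals as scaling, against 0.13 over all tested genes, and 0.15 with the tubule covariate. Hexa, which encodes part of a lysosomal enzyme that breaks down gangliosides, averaged 69.4 ± 5.37 CPM in KO and 55.1 ± 1.49 CPM in CTRL (log2 fold change 0.33, SE 0.08, edgeR adjusted p = 0.0775). Of 10 tested ligand carriers and brush border partners, 9 were negative, with 0 called (Rbp4 was not tested). The list median was -0.40, beside -0.54 for proximal tubule markers, and 0.09 with the tubule covariate. The sodium and proton exchanger Slc9a3, which works beside megalin in the brush border, averaged 91.3 ± 19.2 CPM in KO and 141 ± 8.14 CPM in CTRL (-0.62, SE 0.15, adjusted p = 0.077). Cyp27b1, which activates vitamin D, averaged 12.7 ± 3.11 CPM in KO and 7.28 ± 1.71 CPM in CTRL, with overlap (0.80, SE 0.24, adjusted p = 0.0935).

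**Figure D5:**
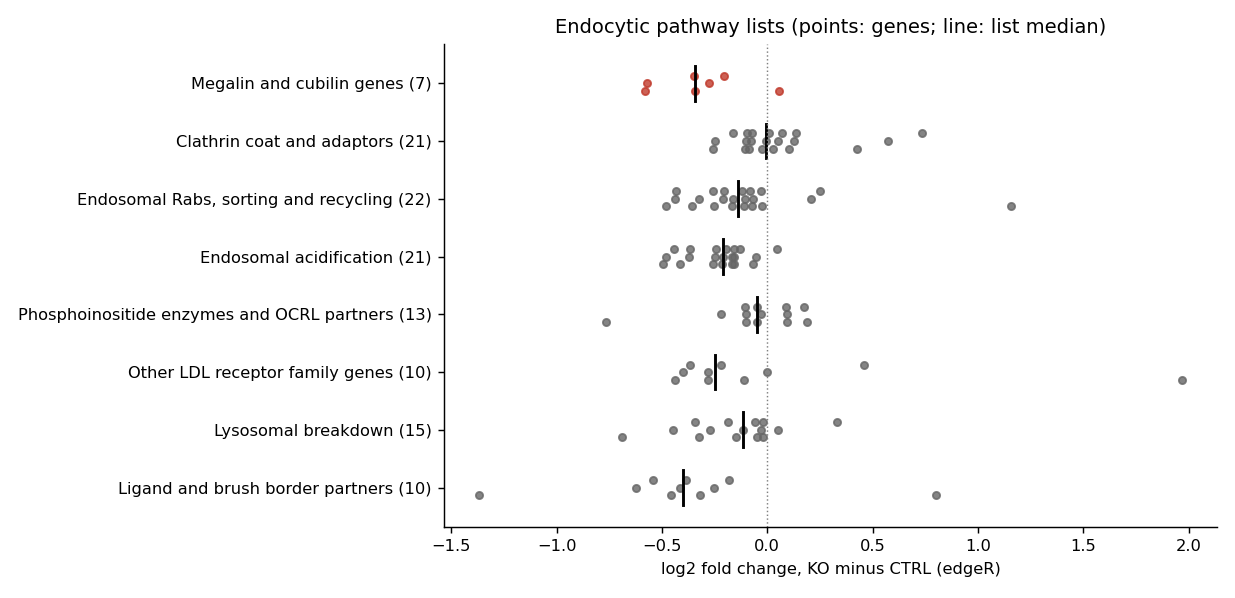
Log2 fold change of each tested gene, KO minus CTRL (horizontal axis), in the 7 megalin and cubilin genes and 7 endocytic lists, with list medians as lines. The medians are -0.34 for the 7 genes and -0.21 for acidification genes, and Lrp1 stands apart at 1.97.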

How the data were processed

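Per the labels' protocols, total RNA of isolated glomeruli was extracted with a column kit. The submitters' processing notes list STAR 2.6.0, fastp 0.19.5, DESeq2 and HTSeq 0.11.1, with no role for any of them, and the build GRCh37, a human assembly, although every gene identifier is a mouse Ensembl identifier. Alignment build, annotation release and strand setting were not given in the sources used here. The authors deposited raw read counts per gene, whole numbers without normalization, for 54838 identifiers in each library. The closing lines that name no gene were left out. Reads that aligned to more than 1 place made up 22.5% to 29.6% of records and are absent from gene counts, as are ambiguous reads (1.55% to 1.79%). Reads in no feature made up 2.57% to 3.41%, low-quality alignments 0.13% to 0.15% and unaligned reads 0.7% to 1.22%.

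Names, positions and exon lengths came from GENCODE M21 on GRCm38, which named 54809 identifiers. The unnamed ones held at most 0.0026% of counts. Libraries of a group were compared by chi-square (genes with 50 or more summed counts), which gave at least 16.7 per degree of freedom, so none was counted as a copy. The fit used R 4.3.3 and edgeR 4.0.16 with TMM scaling, filterByExpr (minimum count 10) and the robust quasi-likelihood F test. It was tested on simulated counts with a common dispersion and no outlying library, so that test does not bear on the spread seen here. Benjamini-Hochberg adjustment ran over every tested gene, and genes below 0.05 were called. SE is the size of the log2 fold change over the root of its F value. CPM are counts per 1000000 on TMM library sizes, and log2 CPM used a prior count of 2. TPM were computed from the counts and the merged exon length. Single values were tested by exact permutation, two-sided, over libraries. Alternatives were DESeq2 1.42.0, other scalings, no filter, a proximal tubule covariate and each library left out.

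The genes described and all lists were chosen with earlier results of these data known. Besides the 7 genes, the rule named up to 5 called genes per list or, with none called, the 2 of smallest p, and the 3 genes whose centred log2 CPM profile lay nearest to each of the 7, among genes of at least 10 CPM on average. Some genes that this rule names are not reported here.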

Additional observations from a re-analysis of the deposited data

How the results depend on the processing

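With all 6 libraries, edgeR called 173 genes, 0 of the 7 endocytosis genes and 1 of the 112 pathway genes. Leaving out 1 library gave 2 to 3211 genes, 0 to 2 of the 7 and 0 to 20 pathway genes. The gene count was 2 without KO 147 or CTRL 157, 3 without CTRL 162, 10 without CTRL 163, 2974 without KO 146 and 3211 without KO 148. In the same order the counts were 2871, 2 and 14 with DESeq2, 960, 0 and 4 without a filter on low counts, 268, 0 and 2 with the tubule covariate, and 164, 0 and 2 with library totals as scaling. The cause was not tested.

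DESeq2 gave -0.58 for Lrp2 (adjusted p = 0.0315) and -0.59 for Cubn (adjusted p = 0.0386), both past the threshold. Without 1 library the Lrp2 value ran from -0.71 to -0.41 and the Cubn value from -0.69 to -0.40. With the tubule covariate the sign turned for Amn (0.42), Dab2 (0.031), Clcn5 (0.22), Ocrl (-0.013), Lrpap1 (0.15) and Arhgef7 (-0.38). Without 1 library the Arhgef7 value ran from -0.068 to 0.28. Library totals moved the median of all genes to 0.13 on the log2 scale. Lrp2 was then at -0.45 and Cubn at -0.46, and no sign among the 7 genes turned under the scalings tried. Named pathway genes not called with all 6 libraries passed in some alternatives, whose counts over all genes are given above. Clcn3, Hexa and Slc9a3 passed in 4 each, Atp6v1b2, Rab11fip3, Myo5b and Lrp1 in 3, Itsn1 in 2 and Cyp27b1 in 1. Hexa was among those called with the tubule covariate (0.50, edgeR adjusted p = 0.0172).

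Small differences had no stable sign without 1 library. They ran from -0.071 to 0.024 for Lrp2 and from -0.088 to 0.065 for Cubn relative to tubule markers, and from -0.041 to 0.055 for Lrp2 to Cubn. Those turned positive were 0.01 and 0.024 for Lrp2 (without CTRL 157 and 163) and 0.065 and 0.011 for Cubn (without CTRL 163 and KO 148). For Lrp2 to Cubn, -0.041, -0.007 and -0.015 came without CTRL 163, KO 146 and KO 148. The Cubn to Amn difference ran from -0.40 to -0.30 and that of Amn relative to tubule markers from 0.31 to 0.38.

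No paired analysis was possible because the labels give the groups no shared replicate numbers. With 3 libraries per group, exact tests of single values cannot go below 0.1.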

Other observations

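Some genes of the endocytic lists with values outside the rest were picked after their values were seen, and edgeR called none of them (adjusted p 0.106 to 0.154). Ehd4, which acts in endosomal recycling, averaged 89.2 ± 50.8 CPM in KO and 40.02 ± 0.87 CPM in CTRL (SD, n = 3 each), without overlap. Numb, an endocytic adaptor, averaged 69.2 ± 24.1 CPM in KO and 46.6 ± 0.68 CPM in CTRL, also without overlap. Of all tested genes, 21.9% were higher in KO without overlap. In KO 146, 147 and 148, Ehd4 had 146, 72.3 and 49.0 CPM and Numb had 96.9, 57.8 and 52.9 CPM. Podocyte, endothelial and mesangial markers had the same order, and their part in these values was not tested. Cyp24a1, which breaks down vitamin D, averaged 21.5 ± 2.84 CPM in KO and 55.5 ± 35.8 CPM in CTRL, where CTRL 157 with 20.1 CPM lay within the KO range.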
